A study of Rattus norvegicus with 8 samples.

Results

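Hepatic transcripts of 8 genes of mitochondrial iron-sulphur cluster assembly (Nfs1, Iscu, Isca1, Glrx5, Hspa9, Fdx1, Fdxr and Bola1) were compared between rats fed an iron-deficient diet and rats fed a control diet. Members were all probe sets of the array whose annotation gave exactly 1 gene symbol from these 8. That rule, which used no measured value, found 12 probe sets for 7 of the 8 genes, among 31042 probe sets and 14217 named genes in all. No probe set was paired with Fdxr alone, so Fdxr was not analysed here. No member differed between the diets after adjustment over all probe sets, and in none of the 12 probe sets did the groups separate.

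Liver RNA came from male Sprague-Dawley rats that arrived at 3 weeks of age and were labelled as 7 weeks old. It was hybridised to 4 Affymetrix arrays for the iron-deficient and 4 for the control diet. Both diets were purified and alike except that ferric citrate was left out of the iron-deficient one. Feeding was restricted from day 12. Rats were killed on day 17 after 1.5 h of feeding, following 4 days of feeding by day only. Hemoglobin of deficient rats was then 42% of control. The labels give 7 rats on the deficient diet and 6 on the control diet, tie no array to a rat and name no batch.

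Iron-sulphur clusters are built in mitochondria from iron and from sulphur taken off cysteine, first on a scaffold protein and then passed by chaperones and carrier proteins to enzymes such as aconitase, lipoate synthase and subunits of the respiratory chain. Products of the same machinery leave mitochondria for cytosolic and nuclear proteins. In liver the pathway also stands behind heme synthesis and behind the cytosolic aconitase that, without its cluster, acts as an iron regulatory protein.

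Values were deposited on a log2 scale on which differences between arrays are strongly compressed, some probe sets more than others. A difference on it is therefore no fold change, and its size cannot be set against that of another probe set. Each array is given as its offset from the control mean of that probe set, in units of 1e-06 log2. The standardised difference is the difference between group means divided by the within-group SD. Within-group SDs of the 12 probe sets ran from 8.84e-07 for Iscu to 0.00444 for 1 probe set of Hspa9, a ratio of 5027, around a median of 7.82e-06 over all probe sets. In bulk liver, fewer cells of a type and less RNA per cell cannot be told apart.

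The diet was visible in both iron-responsive genes used as checks. Tfrc, the transferrin receptor, was higher in all 4 iron-deficient livers on both of its probe sets, by 0.0373 ± 0.00145 and 0.0854 ± 0.00600 (SE, n = 4 per group, limma adjusted p = 0.00120 and 0.0183). Hamp, which encodes hepcidin, averaged 7.87 ± 1.81 (SD) over the iron-deficient and 16.02 ± 0.0514 over the control arrays (n = 4 per group, limma adjusted p = 0.0735), with iron-deficient replicate 2 at 10.58 against 6.93 to 6.99 in the other 3. Of 9 hepatocyte markers 4 were higher and 5 lower, none called by limma and 0 at an unadjusted p under 0.05, with Alb, albumin, at 15.00 in both groups. Serpina1 was without overlap between the groups (4.05 SDs, limma adjusted p = 0.946), as were 7.82% of all named genes. Within-group SDs in this list went down to 5.56e-08, and limma's fit draws such very small variances upward. Under quantile normalization 9 of the 9 were higher and 8 called, against 55.8% higher and 5.47% called over all named genes. When Hamp was dropped beforehand 8 of the 9 differences were 0, as were 8.03% of those over all named genes. Of 8 endothelial markers 7 were higher in iron-deficient livers, against 47.0% of all named genes, and limma called 0. Of the 8, 6 were higher at an unadjusted limma p under 0.05 and 6 had groups without overlap, against 5.74% and 7.82% of all named genes. The list's mean z-score ran from 0.22 to 0.93 in iron-deficient and from -0.82 to -0.48 in control livers. Quantile normalization put 8 of the 8 higher, and 7 without Hamp in it, against 55.8% and 34.2% of all named genes. Of 9 stellate markers 7 were higher, with scores from 0.24 to 0.80 against -0.53 to -0.45. Only 3 of the 9 were higher under either quantile normalization, against 55.8% of all named genes, or 34.2% without Hamp. For the 7 members the same score ran from -0.63 to 0.62 in iron-deficient and from -0.21 to 0.37 in control livers, so the groups overlapped. Kupffer markers were higher for 8 of 8 genes (1 of 8 when Hamp was dropped before quantile normalization, against 34.2% of all named genes), erythroid markers for 5 of 8 and lymphocyte markers for 4 of 8. The scores of all 3 lists overlapped between the groups. The actin 3′ to 5′ difference, a sign of RNA quality, ran from 1.4064 to 1.4083 in iron-deficient and from 1.4072 to 1.4092 in control livers (lower in mean, two-sided exact permutation p = 0.114). That of GAPDH averaged 1.16963 in iron-deficient and 1.16974 in control livers (p = 0.0571 by the same exact test). The part of cell composition and RNA quality in the members' values was not tested.

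Proximal promoters are shown for Isca1, the member with the largest standardised difference, for Iscu, the scaffold, and for Bola1, which differed most in the other direction. Each is the 250 bases before the annotated start, taken from RefSeq on GRCr8 and read 5′ to 3′ on the gene's strand. They lie at chr17:4910566-4910815 on the plus strand (Isca1), chr12:48518697-48518946 on the minus strand (Iscu) and chr2:186448403-186448652 on the minus strand (Bola1), and overlap no annotated gene. Capitals mark matches on either strand to 3 motifs, ACGTG (the core of the hypoxia response element), the NRF1 motif (GCGCA, any base, then GCGC, found before many nuclear genes of mitochondrial proteins) and CCAAT.
Isca1: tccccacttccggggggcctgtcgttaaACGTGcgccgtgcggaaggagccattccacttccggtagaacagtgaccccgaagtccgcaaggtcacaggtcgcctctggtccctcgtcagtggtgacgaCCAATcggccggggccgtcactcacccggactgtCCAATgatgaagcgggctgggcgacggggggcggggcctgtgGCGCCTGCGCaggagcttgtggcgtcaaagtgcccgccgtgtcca
Iscu: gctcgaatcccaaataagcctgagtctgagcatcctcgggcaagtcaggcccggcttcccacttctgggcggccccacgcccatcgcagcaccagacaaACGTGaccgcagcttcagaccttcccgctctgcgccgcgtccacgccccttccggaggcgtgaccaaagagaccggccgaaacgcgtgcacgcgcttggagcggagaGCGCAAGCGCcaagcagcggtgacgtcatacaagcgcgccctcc
Bola1: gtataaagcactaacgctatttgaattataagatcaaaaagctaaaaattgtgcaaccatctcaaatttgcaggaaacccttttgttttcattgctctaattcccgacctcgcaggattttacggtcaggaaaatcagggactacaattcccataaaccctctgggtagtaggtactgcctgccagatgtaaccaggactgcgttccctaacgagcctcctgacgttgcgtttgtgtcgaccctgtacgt
Isca1 held 1 match to ACGTG, 1 to the NRF1 motif and 2 to CCAAT, none of them overlapping another. Iscu held 1 match to ACGTG and 1 to the NRF1 motif. Bola1 held none of the 3, which says only that these letters are not in its window. Among 33469 RefSeq promoter windows of this length, 16.6% held ACGTG, 3.75% held the NRF1 motif and 34.0% held CCAAT. Among the other members with a window in the table, Glrx5 held 4 matches to CCAAT, and Fdx1, Fdxr and Hspa9 held no match to any of the 3. A match is a string of letters and not a shown binding site.

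Over the 12 probe sets, 7 had a higher and 5 a lower mean in iron-deficient livers, where 49.6% of all probe sets were higher. In these 12 limma called 0 after Benjamini-Hochberg adjustment over all probe sets, against 0.0322% of all. Adjusted p ran from 0.430 to 0.976. At an unadjusted p under 0.05 there was 1 member probe set, against 11.4% of all probe sets. The groups overlapped in all 12, while 6.48% of all probe sets had groups that did not overlap. The median absolute standardised difference was 0.724 over the members and 0.656 over all probe sets. With 4 arrays per group these counts do not show that the transcripts were alike, and the intervals below give the sizes left possible.

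**Figure D1:**
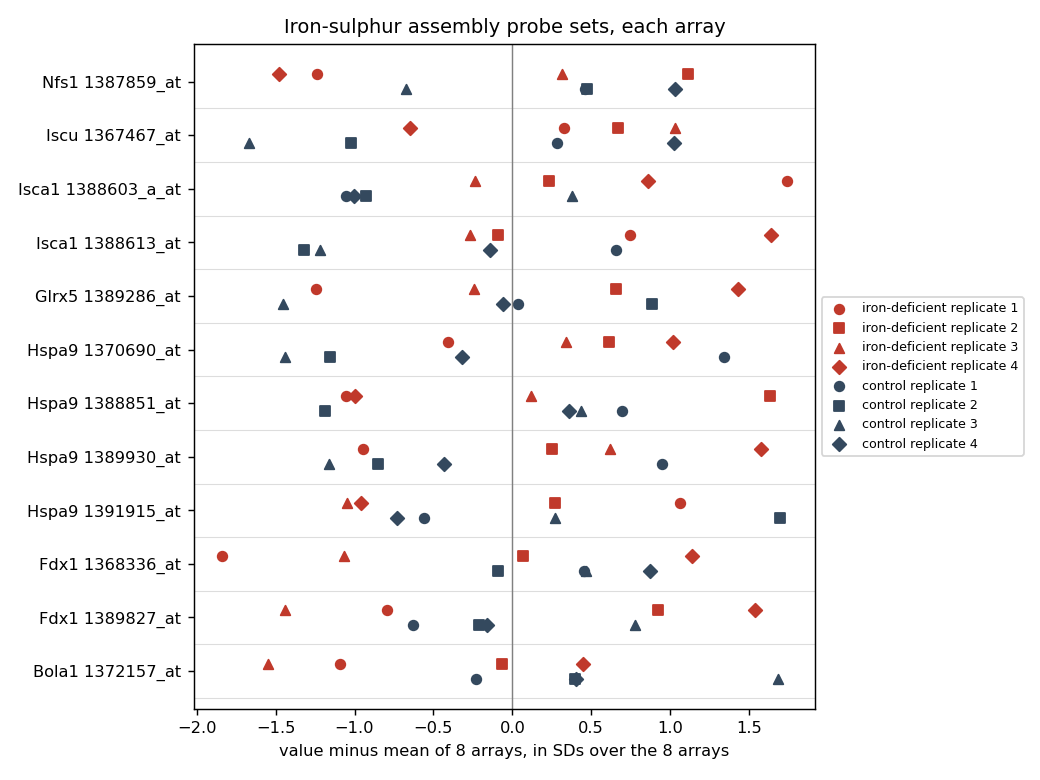
Each point is the value of 1 array for 1 of the 12 member probe sets (rows), minus the probe set's mean over the 8 arrays and divided by its SD over the 8 arrays (x axis, in SDs). Red points are iron-deficient and dark points control livers, marker shapes are replicates, and in all 12 rows the groups overlap.

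Sulphur for the clusters is supplied by Nfs1, the cysteine desulphurase. Its offsets were -2.28, 1.15, -0.01 and -2.63 in iron-deficient replicates 1 to 4 and 0.20, 0.22, -1.45 and 1.03 in control replicates 1 to 4. Iron-deficient replicates 1 and 4 lay below every control and replicate 2 above every control, so the deficient livers spanned the control range. The Nfs1 difference was -9.42e-07 ± 1.22e-06 (SE, n = 4 per group, limma adjusted p = 0.835), a standardised difference of -0.64 with a 95% interval from -2.61 to 1.33. Its sign turned under both quantile normalizations, and under median centring, which raises every difference by about 5.06e-05.

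Iscu is the scaffold on which the cluster forms. Relative to the control mean it read 0.59, 0.89, 1.21 and -0.27 in the iron-deficient livers and 0.55, -0.59, -1.17 and 1.21 in the control livers. The highest deficient and highest control livers were level to 2 decimals, and the lowest value belonged to control replicate 3. The difference was 6.10e-07 ± 9.14e-07 (SE, n = 4 per group, limma adjusted p = 0.866), or 0.69 within-group SDs (95% interval -1.79 to 3.17). For this probe set and for Nfs1 limma's SE was wider than their own spread alone gives, since the fit draws very small variances upward. Under quantile normalization Iscu was called higher, at 0.00296 ± 8.71e-06 (limma adjusted p = 2.61e-13, among 3.52% of all probe sets called). When the Hamp probe set, which lies far lower in the ranking of the iron-deficient arrays, was left out of that normalization, the Iscu difference was 0.

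Hspa9, the mitochondrial Hsp70 that releases clusters from the scaffold and also pulls imported proteins into the matrix, had 4 probe sets. They gave standardised differences of 0.80 (1370690_at), -0.14 (1388851_at), 0.76 (1389930_at) and -0.32 (1391915_at), with limma adjusted p from 0.724 to 0.970. Thus 2 read higher and 2 lower in iron-deficient livers, none past the threshold. Their control means were 9.71, 11.27, 6.94 and 7.00 in the same order. Those of 1389930_at and 1391915_at lay below the array medians of about 7.12, so the 4 are not equal measures of the gene. The probe set with the highest mean, 1388851_at, had offsets of -5.97, 8.23, 0.24 and -5.64 in iron-deficient and 3.27, -6.67, 1.91 and 1.49 in control livers. Its most extreme arrays were iron-deficient replicate 2 at the top and control replicate 2 at the bottom. Offsets of 1370690_at were -6.96, 526, 384 and 741 in iron-deficient and 909, -400, -548 and 38.7 in control livers. Here 3 of 4 deficient livers lay above the control mean, but control replicate 1 was the highest of all. Its difference of 4.11e-04 ± 3.47e-04 (SE, n = 4 per group) kept its sign whichever array was left out and under both quantile normalizations, while median centring could only raise it. Its size moved from 2.28e-04 without control replicate 3 to 7.14e-04 without control replicate 1 (limma adjusted p = 0.282), and was 2.78e-04 without control replicate 2.

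The Hspa9 probe sets did not all vary together, and each pair named here includes 1389930_at or 1391915_at, both of low signal. Probe sets 1370690_at and 1389930_at varied together over the 8 arrays (Pearson r = 0.918, exact permutation p = 0.00250, and Spearman rho = 0.929, exact permutation p = 0.00223). After removal of the 2 arrays farthest from the median r was 0.903, and with group means removed it was 0.902. Probe set 1391915_at ran against 1389930_at (r = -0.724, exact permutation p = 0.0464, and rho = -0.738, exact permutation p = 0.0458, and r = -0.742 without the 2 farthest arrays). Against 1370690_at it gave r = -0.638 (exact permutation p = 0.0936, rho = -0.619, exact permutation p = 0.115, and r = -0.732 without the 2 farthest arrays). Of the 6 Hspa9 pairs 3 were positive and 3 negative. Over the 29 pairs examined, 8 within a gene and 21 between genes, none passed Benjamini-Hochberg adjustment. The adjusted p was 0.0726, 0.269 and 0.339 for the Hspa9 pairs in the order named. At an unadjusted exact permutation p under 0.05 for Pearson r there were 5 pairs. Groups of 4 are too small for a correlation within each diet.

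**Figure D2:**
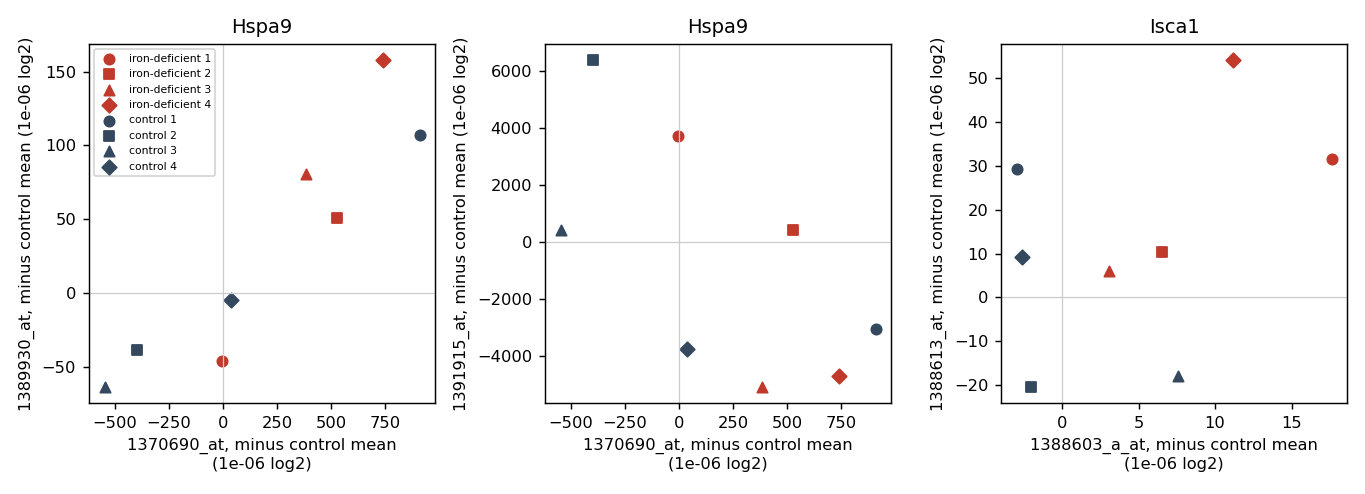
Offsets from the control mean (both axes, in 1e-06 log2) of probe sets that share a gene, with 1 point per array, red for iron-deficient and dark for control livers. The left pair of Hspa9 rises together (r = 0.918, exact permutation p = 0.00250) and the middle pair runs opposite (r = -0.638, exact permutation p = 0.0936), neither past adjustment. In the right panel all 4 iron-deficient livers lie above the control mean on both Isca1 probe sets.

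Clusters leave the scaffold through Glrx5, a monothiol glutaredoxin. Glrx5 offsets were -31.7, 23.3, -2.78 and 45.7 in iron-deficient and 5.30, 29.9, -37.7 and 2.53 in control livers. Deficient livers took the top place and control replicate 3 the bottom one. The difference was 8.62e-06 ± 2.08e-05 (SE, n = 4 per group, limma adjusted p = 0.928), or 0.28 SDs (95% interval -1.34 to 1.90). It turned lower without iron-deficient replicate 4 or control replicate 3 and when Hamp was dropped before quantile normalization.

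Isca1, an A-type carrier protein needed for the larger clusters of lipoate synthase and mitochondrial aconitase, showed the largest standardised difference of the members. On 1388603_a_at the iron-deficient livers read 17.6, 6.52, 3.06 and 11.1 above the control mean, and the control livers -2.96, -2.03, 7.58 and -2.59. All 4 deficient livers lay above the other 3 controls, but control replicate 3 exceeded 2 of them. The difference was 9.58e-06 ± 3.92e-06 (SE, n = 4 per group, limma unadjusted p = 0.0468 and adjusted p = 0.430), or 1.68 SDs (95% interval 0.03 to 3.32), and the two-sided exact permutation test gave p = 0.0857, where the smallest it can give is 0.0286. Its direction held whichever array was left out, from 6.91e-06 to 1.21e-05, and turned under both quantile normalizations.

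The second Isca1 probe set, 1388613_at, also had all 4 iron-deficient livers above the control mean. Offsets were 31.6, 10.4, 6.02 and 54.1 in iron-deficient and 29.3, -20.5, -18.0 and 9.17 in control livers. Control replicate 1 lay among the deficient livers, so the groups overlapped here too. The difference was 2.55e-05 ± 1.55e-05 (SE, n = 4 per group, limma adjusted p = 0.600), or 1.11 SDs (95% interval -0.51 to 2.74), and it stayed higher under all 3 scalings. The controls that stood high differed between the probe sets, and their correlation over the 8 arrays was weak (r = 0.424, exact permutation p = 0.291, rho = 0.381, exact permutation p = 0.360, and r = 0.552 without the 2 farthest arrays).

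Bola1, a BolA protein that pairs with Glrx5, lay at the opposite end. Its offsets were -54.9, -20.9, -70.0 and -3.91 in iron-deficient and -26.4, -5.58, 37.2 and -5.25 in control livers. None of the 4 deficient livers reached the control mean, and replicates 1 and 3 lay below every control. The difference of -3.74e-05 ± 1.93e-05 (SE, n = 4 per group, limma adjusted p = 0.531) corresponded to -1.31 SDs (95% interval -2.93 to 0.31), with a two-sided exact permutation p of 0.200. It stayed lower whichever array was left out, from -4.86e-05 to -2.50e-05, but turned under both quantile normalizations. It also turned under median centring, whose upward shift of about 5.06e-05 exceeds the difference.

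Fdx1 is a ferredoxin that hands electrons to mitochondrial cytochrome P450 enzymes, and Fdxr the reductase that charges it. On 1368336_at the Fdx1 offsets were -96.7, -15.1, -63.5 and 30.4 in iron-deficient and 1.22, -21.9, 1.70 and 19.0 in control livers. The deficient livers held both the lowest and the highest value, and their SD was 5.56e-05 against 1.68e-05 in controls. The difference was -3.62e-05 ± 2.78e-05 (SE, n = 4 per group, limma adjusted p = 0.690), or -0.88 SDs (95% interval -2.50 to 0.74). It was -1.61e-05 without iron-deficient replicate 1 and -5.85e-05 without iron-deficient replicate 4. Under quantile normalization it was called in the other direction, at 0.00112 (limma adjusted p = 9.09e-11), and without the Hamp probe set in that normalization it was 0.

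The second Fdx1 probe set, 1389827_at, gave offsets of -19.4, 25.9, -36.6 and 42.1 in iron-deficient and -15.2, -4.06, 22.0 and -2.72 in control livers. Its control mean was 7.25, near the array medians of about 7.12, against 10.66 for 1368336_at. Here the 4 deficient livers took the 2 highest and the 2 lowest places. The difference of 2.99e-06 ± 1.93e-05 (SE, n = 4 per group, limma adjusted p = 0.976) was 0.11 SDs (95% interval -1.52 to 1.73). In both probe sets iron-deficient replicates 1 and 3 were below the control mean and replicate 4 was the highest array. Bola1 ordered the deficient livers in a similar way, and Fdx1 (1368336_at) and Bola1 correlated at r = 0.736 (exact permutation p = 0.0371, rho = 0.810, exact permutation p = 0.0218), with an adjusted p of 0.269 and 0.316. Without the 2 arrays farthest from the Fdx1 median r was 0.142, and with group means removed it was 0.650. The relation thus leans on those 2 arrays, though leaving them out also narrows the range of Fdx1. Other pairs ran opposite, Nfs1 with Isca1 1388603_a_at (r = -0.779, exact permutation p = 0.0256, rho = -0.667) and Iscu with Bola1 (r = -0.737, exact permutation p = 0.0357, rho = -0.643), each with an adjusted p of 0.269. Over the 21 pairs between genes 11 were positive.

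**Figure D3:**
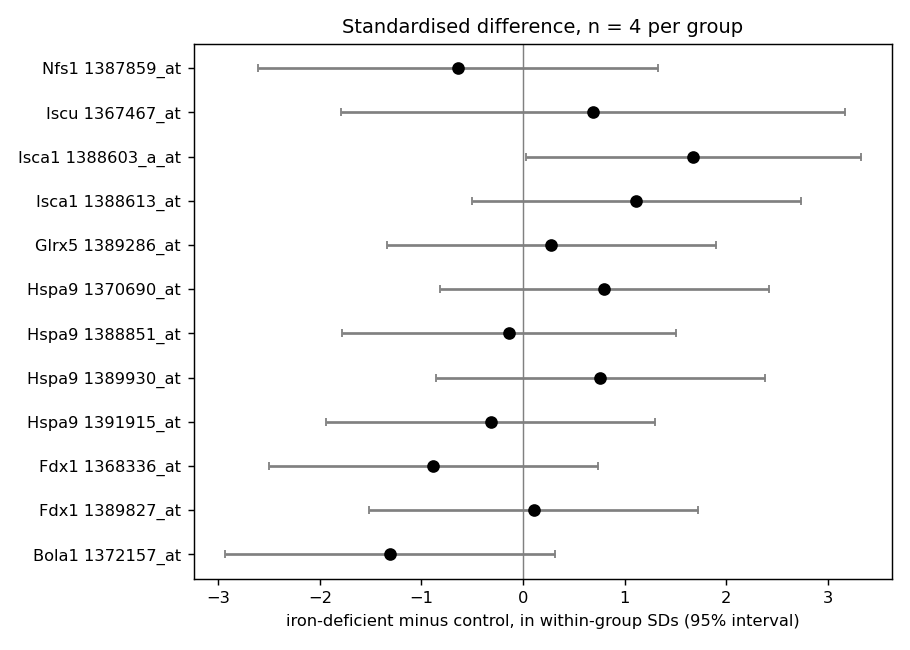
Standardised difference of each member probe set, iron-deficient minus control, in within-group SDs (x axis, n = 4 per group). Bars are limma's 95% interval of the difference, divided by the same SD. The values run from -1.31 for Bola1 to 1.68 for Isca1 1388603_a_at, the only interval that does not reach 0.

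Each member's profile over the 8 arrays was also matched against all named genes by the root mean square distance between z-scores, where the median gene lay between 1.29 and 1.36 from the members. The closest genes lay at 0.22 (Bub1b, a mitotic checkpoint kinase) for Nfs1, 0.18 (C3, a complement protein) for Iscu, 0.25 (Cbx6) for Isca1, 0.28 (Lipt2, a lipoyl transferase) for Glrx5, 0.17 (Kif22, a kinesin) for Hspa9, 0.22 (Akain1) for Fdx1 and 0.20 (Ech1, an enzyme of fatty acid oxidation) for Bola1. The second closest were Cacna1h, Oasl, Bcam, Itfg2, Psmd8, Acot4 and Coasy, at distances from 0.24 to 0.37. No member had another member among its 2 closest genes. These are the nearest of 14217 genes over only 8 arrays and are given as a description.

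Beyond the members, 16 other genes of mitochondrial cluster assembly and export were measured, 3 higher and 13 lower in iron-deficient livers, and limma called 0, with 2 lower at an unadjusted p under 0.05. Over all named genes 47.0% were higher, limma called 0.0422%, and 13.2% had an unadjusted p under 0.05 (5.74% higher and 7.5% lower). The median standardised difference of the 16 was -0.54, against -0.07 over all genes and -0.14 over the 7 members. With array values averaged as z-scores, the 16 genes ran from -0.59 to -0.16 in iron-deficient and from 0.02 to 0.84 in control livers. Under quantile normalization 11 of 16 were higher and 1 was called, where 55.8% of all genes were higher and 5.47% called. With Hamp left out of it 7 were higher and 8 lower, where 34.2% of all genes were higher. Median centring adds about the same amount to every difference and put 90.8% of all genes higher, so its counts say little about any list. With all probe sets of a gene averaged, 5 were higher.

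Slc25a28, mitoferrin 2, which carries iron into mitochondria, had the largest standardised difference of these 16, at -2.68. Its offsets were -22.5, -38.8, -9.37 and -25.4 in iron-deficient and -1.16, -2.70, 5.82 and -1.96 in control livers. The groups did not overlap, as in 7.82% of all genes, and the difference of -2.40e-05 ± 6.11e-06 (SE, n = 4 per group) had a limma adjusted p of 0.250. Abcb8, a transporter of the mitochondrial inner membrane, stood at -2.14 SDs (limma adjusted p = 0.340), Fdx2, the ferredoxin of cluster synthesis, at -1.57 (0.460) and Slc25a39 at -0.94 (0.669).

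Of 10 genes of the cytosolic assembly machinery, 5 were higher and 5 lower with a median standardised difference of 0.16, and limma called 0, with 0 at an unadjusted p under 0.05. The largest differences were those of Ciao2b at -1.33 SDs, Nubp1 at 1.03, Ciao2a at 0.96 and Nubp2 at 0.95, all of them with overlapping groups. Nubp1 and Nubp2 form the scaffold on which cytosolic clusters are built, and the Ciao2 proteins belong to the targeting complex that delivers them. Under quantile normalization 8 of the 10 were higher, and 6 with Hamp left out of it, against 55.8% and 34.2% of all genes.

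Among 23 proteins that carry a cluster outside the respiratory chain, 10 were higher and 13 lower, with a median of -0.20 and 0 called by limma (unadjusted p was under 0.05 for 1 higher and 4 lower). Nthl1, a DNA glycosylase, stood at -2.27 SDs without overlap between the groups (limma adjusted p = 0.316). Dpyd, which degrades pyrimidines, stood at 1.93, Pold1, the catalytic subunit of DNA polymerase delta, at -1.76 and Mocs1, of molybdenum cofactor synthesis, at -1.71 (limma adjusted p from 0.370 to 0.418). Dpyd offsets ran from 202 to 482 in iron-deficient and from -223 to 213 in control livers, so even there the groups met. Quantile normalization put 15 of the 23 higher with 3 called, against 55.8% higher and 5.47% called over all genes. Without Hamp it put 5 higher and 15 lower with none called, against 34.2% and 57.8% of all genes.

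The 4 measured P450 enzymes fed by ferredoxin had standardised differences of 0.06 (Cyp27a1, of bile acid synthesis), -0.46 (Cyp11a1), -0.68 (Cyp27b1) and -1.06 (Cyp11b1). Limma called 0 of them, with 0 at an unadjusted p under 0.05. Only Cyp27a1 was high, at a control mean of 12.40. Those of Cyp11a1 (6.63), Cyp27b1 (6.95) and Cyp11b1 (6.00) lay below the array medians of about 7.12, so their differences come from low signals. Under either quantile normalization 2 of these 4 were higher. With Hamp kept 1 of the 4 was called, against 5.47% of all genes. Of 13 genes of mitochondrial chaperones and protein import, which share the matrix with Hspa9, 3 were higher and 10 lower, with a median of -0.26 and 0 called by limma (unadjusted p was under 0.05 for 1 higher and 1 lower). Under quantile normalization 12 of the 13 were higher and 4 called, against 55.8% higher and 5.47% called over all genes. Without Hamp 6 were higher and 4 lower with none called, against 34.2% and 57.8% of all genes. Without control replicate 3 the count was 7 higher and 6 lower, and without iron-deficient replicate 3 it was 5 and 8. Lonp1, the matrix protease, was at -2.51 SDs (limma adjusted p = 0.277) and Tomm20, an import receptor of the outer membrane, at 2.37 (0.298), each without overlap between the groups. Pam16 stood at -1.56 and Clpx at 1.10, and for both the groups overlapped.

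**Figure D4:**
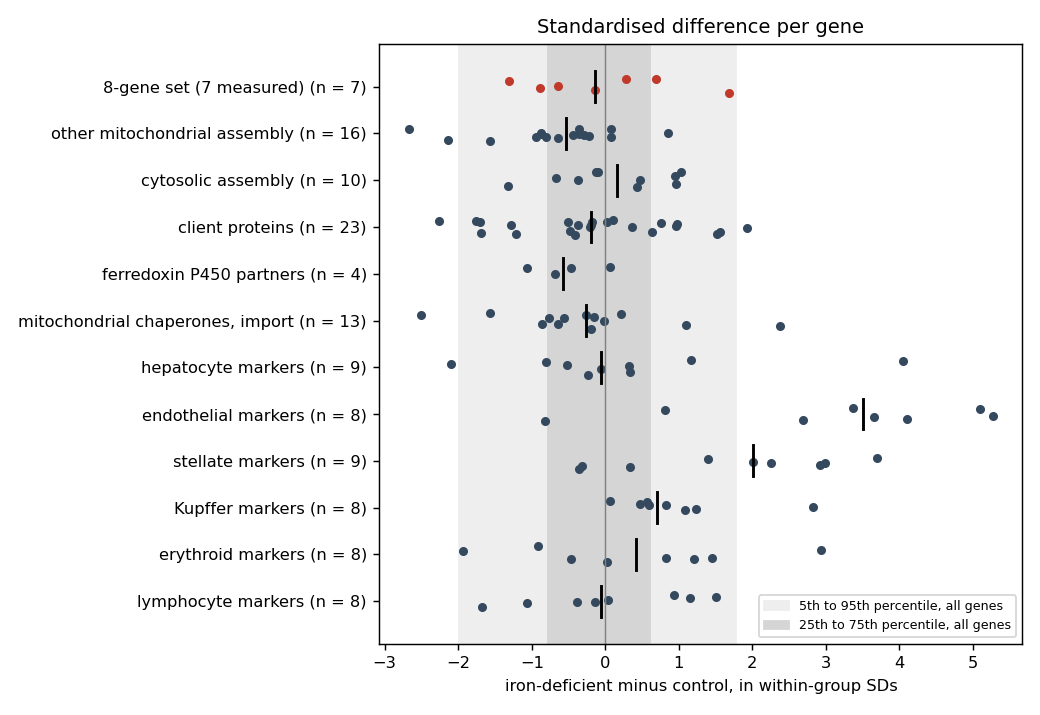
Standardised difference of each gene (x axis, iron-deficient minus control, in within-group SDs) in the 7 measured members (red) and the other lists (dark), with list medians as bars and the 5th to 95th and 25th to 75th percentiles of all genes shaded. The members run from -1.31 to 1.68 with a median of -0.14, inside the 5th to 95th percentile band of -1.99 to 1.77, while the endothelial markers have a median of 3.51.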

How the data were processed

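Rat liver RNA was measured on 8 Affymetrix arrays, and per the labels biotin-labelled cRNA was made from 2 µg of total RNA. The deposited table holds log2 values for 31099 probe sets, a unit read from the values, and the authors' summary and normalization are not given in the sources used here. Array medians ran from 7.1199 to 7.1207. No depth applies to arrays, and the number of arrays limits the precision. Of the probe sets, 57 controls were left out. Symbols came from the platform annotation and were updated through RefSeq gene identifiers (20826 probe sets with 1 symbol, 436 with several, 9780 with none).

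Iron-deficient minus control was fitted over all 31042 probe sets with limma 3.58.1 in R 4.3.3, with Benjamini-Hochberg adjustment and a threshold of 0.05, and the script was tested on simulated data. For list counts, the probe set of highest mean stood for a gene. All member probe sets were named. From each pathway list up to 4 genes with the largest absolute standardised difference were named, and 2 of nearest profile per member. Members and lists were chosen with earlier results of these data known. The labels call the arrays biological replicates without naming animals, so p-values measure the spread between these 8 samples.

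Alternatives were 2 quantile normalizations, median centring, a filter dropping the 25% of probe sets with the lowest means, other variance models, a replicate block, each array left out and averaged probe sets.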

Additional observations from a re-analysis of the deposited data

Results flagged for a closer look

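Control replicate 3 stood apart from the other 3 control livers on the Isca1 probe set 1388603_a_at. Its gap to the nearest control was 0.912 of the control range, above Dixon's 95% critical value for 4 samples. It was 1 of 24 sets of 4 values examined, where chance alone marks about 1 in 20. Without that array the Isca1 difference was 1.21e-05 (limma adjusted p = 0.462), against 9.58e-06 with it.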

How the results depend on the processing

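No member probe set was called in limma under leaving out the lowest 25% of probe sets, a mean-variance trend, robust empirical Bayes, the replicate block, median centring, quantile normalization without the Hamp probe set, or any array left out. Quantile normalization called 2, Iscu and Fdx1 1368336_at, and both are at 0 without Hamp in it. Called probe sets in all numbered 10, and 1093 under quantile normalization, 83 without Hamp in it, 63 under median centring, 1 with the replicate block, and 4 to 27 with an array left out (lowest without iron-deficient replicate 4 or control replicate 3, highest without iron-deficient replicate 3, and 5 and 6 without iron-deficient replicate 2 and control replicate 2). The labels tie no array to a rat, and same-numbered arrays correlated at -0.10 to 0.03 after removal of group means. With groups of 4, low correlations cannot exclude a pairing, so the unpaired fit rests on the labels. In this balanced design the block leaves each difference as it was and changes only its error.

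Under quantile normalization the sign turned for Nfs1 (4.60e-04), Isca1 1388603_a_at (-7.94e-05), Hspa9 1388851_at (8.50e-04), Fdx1 1368336_at (0.00112), Fdx1 1389827_at (-4.35e-05) and Bola1 (5.57e-04). Without Hamp in it, it turned for Nfs1 (9.99e-05), Isca1 1388603_a_at (-0.00194), Glrx5 (-5.04e-04), Fdx1 1389827_at (-9.19e-05) and Bola1 (1.27e-04). Median centring, which shifts every difference by the same amount, turned Nfs1 (4.96e-05), Hspa9 1388851_at (4.98e-05), Fdx1 1368336_at (1.43e-05) and Bola1 (1.32e-05). The cause was not tested further. With single arrays left out, signs turned for Glrx5 (-3.95e-06 to 2.21e-05), Hspa9 1388851_at (-3.79e-06 to 9.43e-07), Hspa9 1391915_at (-0.00312 to 7.18e-04) and Fdx1 1389827_at (-1.00e-05 to 1.62e-05). Signs held but sizes moved by over 1.5 times for Nfs1 (-1.64e-06 to -3.80e-07), Iscu (2.22e-07 to 1.01e-06), Isca1 1388613_at (1.60e-05 to 3.53e-05) and Hspa9 1389930_at (2.83e-05 to 9.64e-05).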
